A study of Mus musculus with 31 samples.

Results

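Synaptotagmins are vesicle and membrane proteins with a pair of C2 domains, and several of them bind calcium and thereby couple its entry to the fusion of vesicles. The 10 genes described here are Syt1, Syt2, Syt3, Syt4, Syt5, Syt6, Syt7, Syt9, Syt10 and Syt12, taken by gene name from the deposited normalized table and matched by Ensembl identifier to the raw counts. All 10 were found among the 55421 mouse gene rows. Syt1 and Syt2 are fast sensors of synaptic release, and Syt2 is the one best known from large brainstem synapses such as the calyx of Held. Syt7 binds calcium with high affinity and serves slow release and facilitation, Syt4 sits on dense-core and other secretory vesicles, and Syt4 and Syt12 differ from the rest in lacking complete calcium-binding sites. The names Syt5 and Syt9 have been exchanged between laboratories in the literature and are used here as the annotation gives them.

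The cells were 18 lateral olivocochlear (LOC) neurons, patched in the lateral superior olive, and 13 medial olivocochlear (MOC) neurons, patched in the ventral nucleus of the trapezoid body. Both groups came from acute brainstem slices of ChAT-IRES-Cre; tdTomato mice, in which red fluorescence marks cells whose choline acetyltransferase locus has been active, and the labels give the genotype of both as wild-type with RNA sequencing after patch clamp as the treatment. LOC axons end mostly on auditory nerve fibres below the inner hair cells, whereas MOC axons end on outer hair cells. Each library holds the aspirated cytoplasm of 1 neuron, and the labels give no age and no animal. Each group therefore counts as 1 sample, SDs are spreads between cells, and no difference was tested.

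Library totals were 356412 to 1404896 counts in LOC and 598028 to 2627174 in MOC cells. Levels are reads of a gene per 1000000 mouse gene reads (CPM). For a count of 0, 3 counts were taken as the limit of read sampling, which corresponds to 1.14 to 8.42 CPM. Over the cholinergic genes Chat, Slc18a3 and Slc5a7, LOC libraries held 0 to 1613 reads with a median of 305.5, and MOC libraries 0 to 997 with a median of 28. In LOC 14 of 18 libraries had at least 10 such reads, and in MOC 8 of 13 did. MOC cell 4, with 3 such reads, fell below this limit. It nevertheless had 1869 CPM over 6 cholinergic markers, which add Isl1, Gata3 and Prph, and 48 tdTomato reads. No read of the tdTomato reporter was found in 7 LOC and 4 MOC libraries. Some libraries with 0 or 1 cholinergic reads stood apart in other markers as well. LOC cell 14 had 0 cholinergic reads and 709.7 CPM summed over Slc17a6, Slc17a7 and Slc17a8, the vesicular glutamate transporters, and MOC cell 13 had 1 cholinergic read and 413 CPM of them. MOC cell 8 had 0 cholinergic reads, 2992 CPM over 5 markers of inhibitory neurons and 9448 CPM over 10 microglia markers, but also 93 tdTomato reads, the most of the 31 libraries. Such markers were not confined to libraries without cholinergic reads. The highest sum of the glutamate transporters, 733 CPM, was in MOC cell 2, which had 45 cholinergic reads. LOC cell 13, with 584 cholinergic reads, had 1012 CPM over the inhibitory neuron markers. Oligodendrocyte markers, 10 genes led by myelin proteins, summed to 22.7 to 238537 CPM for LOC and 363 to 123302 CPM for MOC libraries.

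By summed and mean levels Syt5 and Syt4 were higher in LOC neurons and Syt2 and Syt6 in MOC neurons, while Syt1, Syt3, Syt7, Syt9, Syt10 and Syt12 did not meet the size rule. The Syt6 difference rested on MOC cells 8 and 13: without MOC cell 8 the summed MOC level of 52.4 CPM was 13.9 CPM, and without either cell the rule was not met. A gene met this rule when the ratio of summed CPM reached 2, the means of log2(CPM + 1) over cells differed by at least 1, and reads occurred in 25% or more of the cells on the higher side. Among all 17754 measured genes, 6.07% met it toward LOC and 5.67% toward MOC, against which stand 2 of the 10 members in each direction. The median LOC minus MOC difference of the 10 members was 0.25 on the log2(CPM + 1) scale, and that of all measured genes was -0.07. Where medians over cells replaced means, only Syt5 met the rule, and the difference was 0.88 for Syt4 and 0.031 for Syt2. With medians 6.13% of measured genes met it toward LOC and 6.79% toward MOC.

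**Figure D1:**
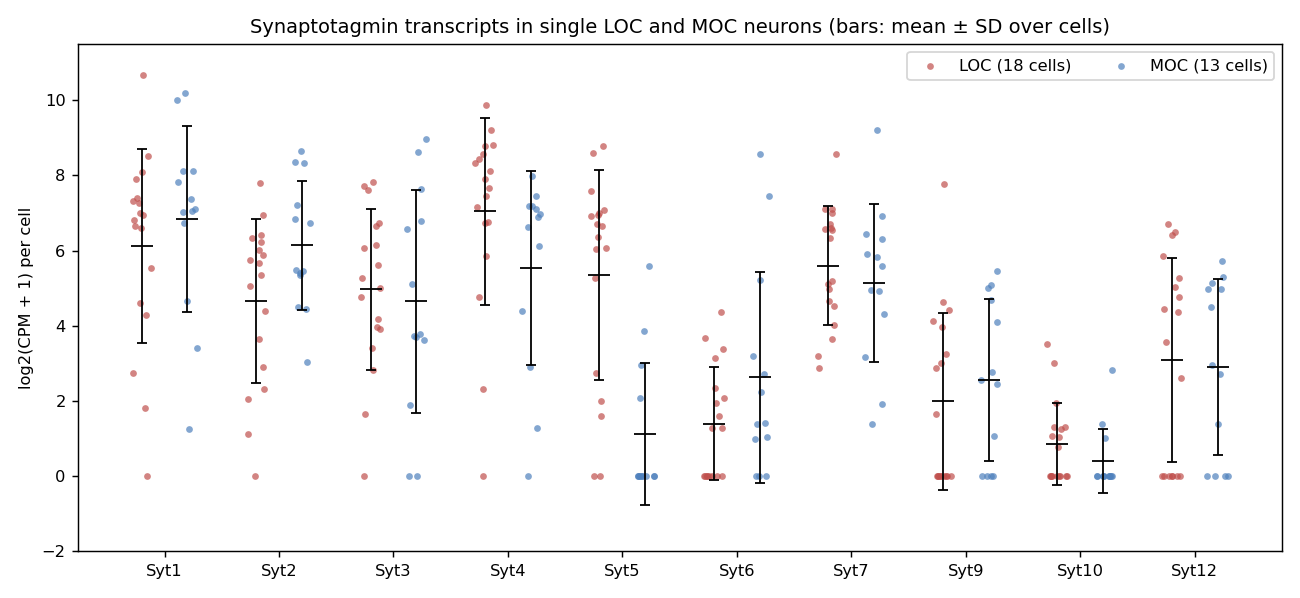
Level of each synaptotagmin in every cell as log2(CPM + 1), LOC (18 cells) left of MOC (13 cells), with the mean and SD over cells. Syt5 averaged 5.35 in LOC and 1.11 in MOC cells, and the SD bars of the groups overlap for all 10 genes, least for Syt5.

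Syt5, a calcium-binding synaptotagmin, was the member with the widest difference. The gene lies on chromosome 7 at 4539765 to 4547541 on the minus strand (GRCm38, ENSMUSG00000004961), and no annotated gene overlaps it. Its level over the 18 LOC cells had a lowest value of 0, a median of 90.5 and a highest value of 442 CPM, and over the 13 MOC cells a lowest and a median value of 0 and a highest value of 47.5 CPM. Above 10 CPM stood 13 of 18 LOC cells and 2 of 13 MOC cells. Most LOC cells were above every MOC cell, and the overlap lay among the lower LOC cells and the MOC cells with a read. LOC cells 2, 6, 7, 9 and 16 held 0 to 5.61 CPM and LOC cell 5 held 37.7 CPM, while MOC cells 4, 6, 12 and 13 held 3.21, 6.70, 13.4 and 47.5 CPM.

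A read of Syt5 occurred in 16 of 18 LOC cells, or 88.9% (exact 95% binomial interval 65.3 to 98.6), whereas only 4 of 13 MOC cells, or 30.8%, had one (9.09 to 61.4). After thinning every library to 300000 reads the expected shares were 84.9% in LOC and 28.1% in MOC, close to those at full depth. For the 9 MOC cells without a read the limit of read sampling, 3 counts, is 1.14 to 5.02 CPM each. It does not cover transcripts lost before sequencing, so it sets no ceiling on the level in the neuron. Summed over cells, Syt5 reached 114 CPM for LOC (95% Poisson interval 109 to 120.0) and 3.74 CPM for MOC (2.78 to 4.92), a ratio of 30.6, with a mean difference of 4.24. MOC cell 13 gave 64.7% of the MOC reads, and the MOC level without it was 1.39 CPM. Intervals on read levels and read shares, here and below, cover the counting of reads alone. The reads carry no molecular identifiers, so copies of 1 molecule count as separate reads and these intervals are too narrow. Intervals on shares of cells treat the cells as independent draws, which the labels cannot show.

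The contrast in Syt5 was wider among libraries with at least 10 cholinergic reads. There, 13 of 14 LOC cells held a read and 12 exceeded 10 CPM, with a median of 102 CPM. In MOC, 1 of 8 cells held any read, MOC cell 6 with 6.70 CPM, and the other 7 cells were at 0. MOC cell 4, left out for its few cholinergic reads, held 3.21 CPM. The summed levels were 122 CPM for LOC and 0.55 CPM for MOC, and the mean difference was 5.67. The 4 LOC libraries under 10 cholinergic reads were not alike: LOC cells 7, 9 and 16 held 5.61, 2.03 and 0 CPM, and LOC cell 14 held 190.2 CPM.

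Syt4, on chromosome 18 at 31437808 to 31447406 (minus strand, ENSMUSG00000024261), was abundant in both groups and higher in LOC. Its level ran from 0 through a median of 220 to 945 CPM for LOC cells, and from 0 through a median of 119 to 252 CPM for MOC cells. The ranges overlap widely, but 8 of 18 LOC cells stood above the highest MOC cell. The summed level was 260 CPM for LOC (252 to 268) and 107 CPM for MOC (101 to 112), and the means of log2(CPM + 1) were 7.04 ± 2.5 in LOC and 5.55 ± 2.58 in MOC (SD, 18 and 13 cells). The difference of 1.5 was 0.88 when medians over cells replaced means and then no longer met the rule. The antisense gene Gm26658 overlaps 566 exonic bases of Syt4 and had 26 reads in LOC and 1 in MOC cells, against 3705 and 1455 reads of Syt4. The libraries do not keep strand, so reads from the shared bases cannot be told apart.

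Both genes that were higher in LOC varied together from cell to cell there. Across the 18 LOC cells the Spearman correlation of Syt4 with Syt5 was 0.81, the highest of the 45 member pairs. In MOC, where 9 of 13 cells had no Syt5 read and so share a rank, no comparison of this relation can be drawn. Within LOC, Syt4 correlated with Chat at 0.84 and Syt5 with Chat at 0.71. With the peptide gene Calca the values were 0.59 for Syt4 and 0.60 for Syt5, with Ucn, the gene of urocortin, 0.45 for Syt4 and 0.49 for Syt5, and with Npy, the gene of neuropeptide Y, 0.02 and 0.09. Library size did not follow either gene closely in LOC (0.01 for Syt4, 0.25 for Syt5). These correlations are descriptions over the cells of 1 group, whose animals and slices the labels do not name and whose totals differ. Of the 18 LOC libraries 14 had at least 10 cholinergic reads, and the correlations were not taken among those alone. The part of cholinergic content per library in them was not tested.

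**Figure D2:**
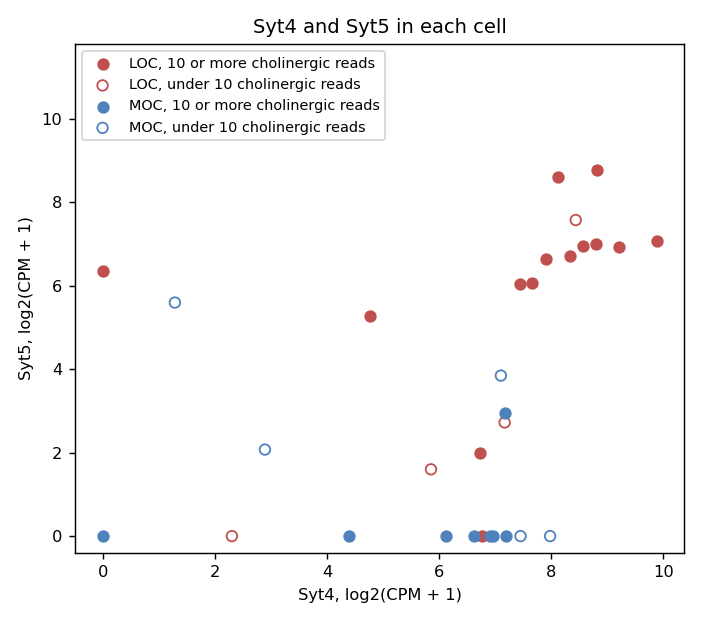
Syt5 against Syt4 as log2(CPM + 1), 1 point per cell, filled where the library held at least 10 cholinergic reads. Most LOC cells lie at the upper right, and MOC cells with filled points lie on the bottom line except MOC cell 6.

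Of the fast sensors, Syt2 was higher in MOC by its sum and mean but not by its median. It lies on chromosome 1 at 134646677 to 134762593 (plus strand, ENSMUSG00000026452). Its level had a lowest value of 0, a median of 44.7 and a highest of 220 CPM for LOC cells, and a lowest of 7.2, a median of 43.5 and a highest of 401 CPM for MOC cells. The groups overlap over most of their range. MOC cells 2, 3 and 10 held 323 to 401 CPM, above every LOC cell, and 5 LOC cells lay below the lowest MOC cell. The summed level was 46.6 CPM for LOC (43.2 to 50.3) and 136 CPM for MOC (130.1 to 143), a MOC over LOC ratio of 2.92, and the mean difference was -1.48. With medians over cells the difference was 0.031. Among libraries with at least 10 cholinergic reads the medians were 51.2 CPM for LOC and 126 CPM for MOC, and the mean difference was -1.82.

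Syt1, the other fast sensor and the one that prevails in the forebrain, did not meet the rule over all libraries. Levels ran from 0 through 117 to 1638 CPM for LOC cells and from 1.38 through 136 to 1173 CPM for MOC cells, and the groups overlapped over almost their whole range. LOC cell 14 held 1638 CPM and MOC cells 3 and 13 held 1028 and 1173 CPM, while the next highest cell, LOC cell 3, held 366 CPM. The summed level of 198 CPM for LOC was 123 CPM without LOC cell 14, and that of 269 CPM for MOC was 187 CPM without MOC cell 3. The mean difference was -0.71. Among libraries with at least 10 cholinergic reads Syt1 met the rule toward MOC, with 131 CPM for LOC, 299 CPM for MOC and a mean difference of -1.85. All 8 of those MOC cells were at 105 CPM or above, and the medians were 125 CPM for LOC and 195 CPM for MOC. MOC cell 3, with 1028 CPM, is among them, and the rule was not applied there without that cell. MOC cell 4, with fewer cholinergic reads, is not among them and held 9.64 CPM.

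Since the share of Syt2 in the pair needs no library size, it was taken within each cell, with reads divided by merged exon length (8338 bases for Syt1, 7638 for Syt2). Every library had at least 10 reads of the pair. The share ran from 0 to 100% in LOC cells with a median of 36.3%, and from 0.67 to 97.1% in MOC cells with a median of 52.5%. More than 50% came from Syt2 in 5 of 18 LOC cells and in 7 of 13 MOC cells. Among cells with at least 50 reads of the pair it did so in 1 of 12 LOC cells and in 6 of 12 MOC cells. Single cells were often far to one side. LOC cell 15 had 37 reads of Syt2 and 0 of Syt1, while LOC cell 14 had 1154 reads of Syt1 and 0 of Syt2. In MOC cell 13, 0.61% of the unscaled reads of the pair came from Syt2 (exact 95% interval 0.198 to 1.42). Among libraries with 10 or more cholinergic reads the medians were 36.3% in LOC and 39.2% in MOC, so the gap between the medians was narrower there. More than 50% came from Syt2 in 4 of 14 of these LOC cells and in 4 of 8 of these MOC cells.

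RefSeq (GRCm38.p6) lists more than one start for both fast sensors. The 250 bases before each of the Syt2 starts and before the upstream Syt1 start are shown to let the promoters of this pair be compared. Capitals mark the GC box (GGGCGG or its reverse complement CCGCCC) and the CCAAT box (CCAAT or ATTGG), which do not overlap here.
Syt1, chr10:109010976-109011225, minus strand: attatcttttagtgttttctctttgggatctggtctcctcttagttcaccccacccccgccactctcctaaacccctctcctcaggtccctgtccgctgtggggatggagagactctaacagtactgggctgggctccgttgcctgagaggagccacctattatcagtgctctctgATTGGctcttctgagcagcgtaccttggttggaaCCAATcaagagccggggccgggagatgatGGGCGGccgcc
Syt2, chr1:134646362-134646611, plus strand: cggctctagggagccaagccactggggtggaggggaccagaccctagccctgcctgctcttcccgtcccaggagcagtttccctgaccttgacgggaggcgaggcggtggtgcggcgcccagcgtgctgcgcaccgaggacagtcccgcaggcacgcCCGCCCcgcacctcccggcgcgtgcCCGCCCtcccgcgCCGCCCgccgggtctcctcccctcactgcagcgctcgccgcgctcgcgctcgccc
Syt2, chr1:134709050-134709299, plus strand: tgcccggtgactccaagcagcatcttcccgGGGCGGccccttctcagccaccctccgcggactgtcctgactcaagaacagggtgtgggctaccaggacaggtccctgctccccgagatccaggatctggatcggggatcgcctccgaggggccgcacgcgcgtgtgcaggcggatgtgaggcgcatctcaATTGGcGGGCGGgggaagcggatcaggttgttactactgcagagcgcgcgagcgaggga
The upstream Syt1 window had 56.4% G and C, with 1 GC box and 2 CCAAT boxes. The window before the downstream Syt1 start, not shown, had 42.8% and neither box. The Syt2 windows had 76% with 3 GC boxes and no CCAAT box upstream, and 66.4% with 2 GC boxes and 1 CCAAT box downstream. Of 32851 such windows in the RefSeq table, 32.7% hold a GC box and 33.8% a CCAAT box, and their median G and C content was 52.4%. None of the 3 windows shown holds the TATA box letters TATAAA or the cyclic AMP response element TGACGTCA, which 12.4% and 1.55% of all windows hold on either strand. Entries were also found for Syt3, Syt6, Syt9 and Syt10.

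Syt6, known from the acrosome of sperm and from vesicles in brain, was low in nearly every cell, and 76.4% of its MOC reads came from MOC cell 8. It lies on chromosome 3 at 103575231 to 103645569 (plus strand, ENSMUSG00000027849), and a pseudogene-named gene that overlaps 505 of its exonic bases, Atg4a-ps, had 0 reads. Levels ran from 0 through 1.42 to 19.4 CPM for LOC and from 0 through 1.67 to 377 CPM for MOC cells. MOC cells 8 and 13, with 377 and 176 CPM, are the libraries with 0 and 1 cholinergic reads described above, and the third highest, MOC cell 6, had 36.2 CPM. Summed levels were 3.51 CPM for LOC and 52.4 CPM for MOC, or 13.9 CPM for MOC without cell 8, and the mean difference was -1.24. Without MOC cell 8 the difference was -0.74 and without MOC cell 13 it was -0.84. Among libraries with at least 10 cholinergic reads the summed level was 3.85 CPM for LOC and 3.86 CPM for MOC, and the difference was 0.023.

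Syt7, the slow high-affinity sensor, was the member read in all 31 cells. Its level ran from 6.33 through 57.5 to 379 CPM for LOC cells and from 1.61 through 47.5 to 586 CPM for MOC cells. The groups overlapped throughout, and the summed levels were 71.3 CPM for LOC and 76.3 CPM for MOC. MOC cell 2 gave 50.4% of the MOC reads, and the MOC level without it was 40.5 CPM. The mean difference was 0.45 with SDs of 1.58 in LOC and 2.11 in MOC, and it was -0.19 in libraries with at least 10 cholinergic reads. The non-coding gene Gm26859 overlaps 384 exonic bases of Syt7 on the other strand.

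Syt3, a further sensor of high calcium affinity, had levels from 0 through 34.3 to 228 CPM for LOC and from 0 through 12.7 to 503 CPM for MOC cells. MOC cells were uneven: MOC cells 5 and 13 held 503 and 394 CPM, above every LOC cell, while MOC cells 1 and 8 had no read. The summed levels were 64.4 CPM for LOC and 74.7 CPM for MOC, and the mean difference of 0.32 was -0.21 with summed counts and 1.36 with medians, so its direction depended on the summary.

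The other 3 members were low. Syt9, a calcium-binding member that some work calls Syt5, had summed levels of 18.9 CPM for LOC and 11.9 CPM for MOC, but LOC cell 17 gave 76.3% of the LOC reads and the level without that cell was 4.81 CPM. It was read in 9 of 18 LOC cells and in 9 of 13 MOC cells. Its mean difference was -0.57, opposite in sign to that of the sums. Syt10, which in olfactory bulb neurons serves the calcium-driven release of insulin-like growth factor 1, totalled 21 reads in LOC and 18 in MOC, of which MOC cell 7 gave 16, and exceeded 10 CPM in 1 cell, LOC cell 11. For Syt12, which is not thought to bind calcium, summed levels were 25.5 CPM for LOC and 16.1 CPM for MOC, with reads in 11 of 18 and 9 of 13 cells. The antisense transcript A930001C03Rik shares 950 exonic bases with Syt12 and had 10 reads in LOC and 7 in MOC, against 363 and 220 of Syt12.

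**Figure D3:**
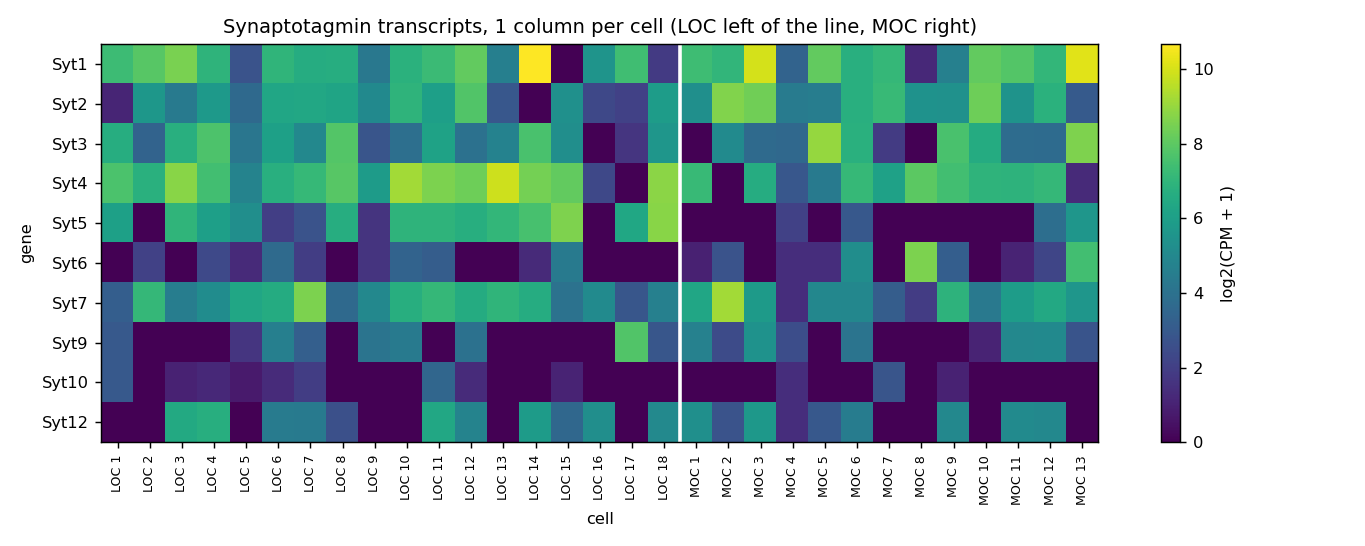
Level of the 10 genes as log2(CPM + 1), 1 column per cell, with the 18 LOC cells left of the white line and the 13 MOC cells right of it. The Syt5 row is filled in most LOC columns and dark in 9 MOC columns with no read, and the Syt6 row is brightest in MOC cells 8 and 13.

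Levels were divided by merged exon length, the union of the annotated exons of a gene, to set genes beside each other. Which transcript forms the cells held was not measured, so this scaling is approximate. The order within each group's summed counts was then as follows. In the summed LOC counts Syt4 came first with 66.8 CPM per kilobase and Syt5 followed with 48.0, ahead of Syt1 with 23.7, Syt3 with 20.6 and Syt7 with 9.52. In the summed MOC counts Syt1 led with 32.2 CPM per kilobase, before Syt4 with 27.4, Syt3 with 24.0, Syt2 with 17.8 and Syt7 with 10.2. Syt2 stood at 6.11 in LOC, and Syt5 at 1.57 in MOC. Syt4 was first in LOC with any 1 cell left out, whereas in MOC it replaced Syt1 at the top without MOC cell 3, where Syt1 had 22.4 and Syt4 27.7 CPM per kilobase, and without MOC cell 13, where Syt1 had 26.4 and Syt4 28.9. Of the length-scaled total of the 10 genes, Syt4 made up 36.0% in LOC and 21.3% in MOC, and Syt5 made up 25.9% in LOC and 1.22% in MOC. Neighbours in these orders differ by less than the SDs between cells, which were 1.58 to 2.98 on the log2(CPM + 1) scale for Syt1, Syt2, Syt3, Syt4, Syt5 and Syt7.

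Within single cells the leading gene varied. Syt4 had the highest level per kilobase in 8 of 18 LOC and 5 of 13 MOC cells. Syt5 led in 3 LOC cells and in no MOC cell, Syt3 in 2 LOC and 3 MOC cells, Syt1 in 2 cells of each group, and Syt2 in 0 LOC and 2 MOC cells. The leading gene supplied 26.9% to 73.9% of the length-scaled total in LOC cells and 27.0% to 77.6% in MOC cells. A cell held reads of 5 to 10 of the genes in both groups, with a median of 8 in LOC and 7 in MOC, and of 7.23 in LOC and 6.98 in MOC after thinning to 300000 reads. Summed over the 10 genes, LOC cells had 124 to 2522 CPM and MOC cells 62.7 to 1852 CPM.

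**Figure D4:**
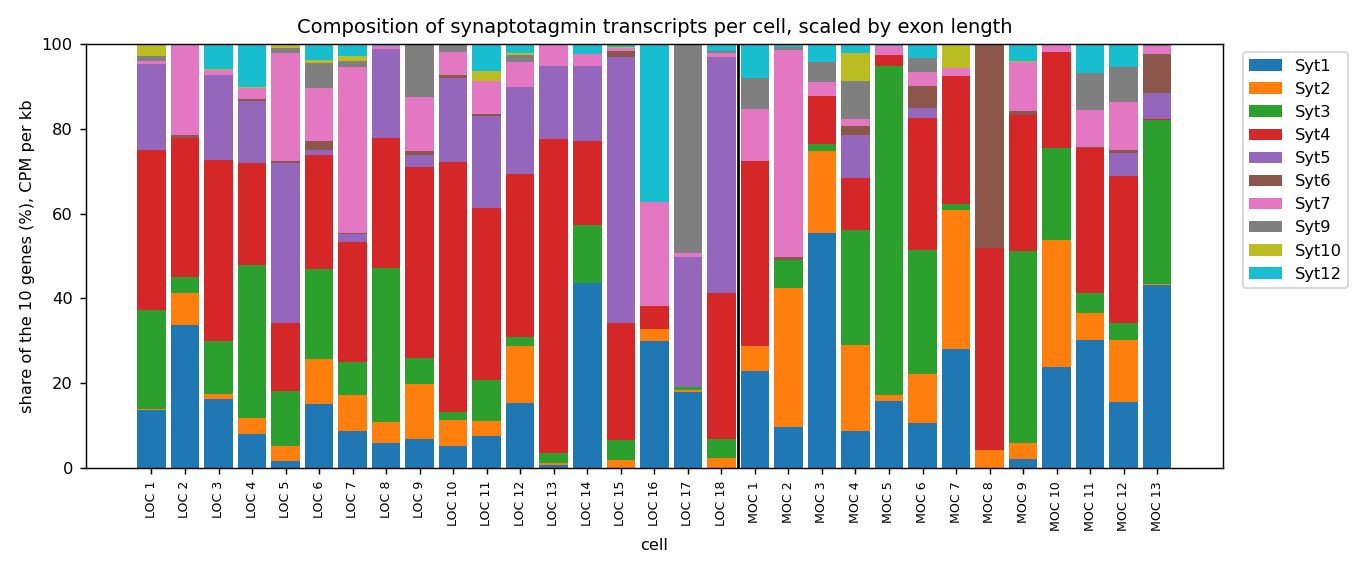
Share of each gene in the length-scaled total of the 10 synaptotagmins (percent of CPM per kilobase), 1 bar per cell, LOC left of the line and MOC right of it. Syt4 and Syt5 fill most of many LOC bars, and Syt5 is visible in few MOC bars.

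The genes most like a member over the 31 cells were taken by Spearman correlation of log2(CPM + 1) among 10968 genes read in at least 50% of the cells. For Syt5 they were Cpne7 (0.83), a calcium-dependent copine, Col4a2 (0.83), a chain of collagen IV, and Ralgds (0.82), an exchange factor for Ral GTPases. Within LOC alone these values were 0.79, 0.75 and 0.64. Within MOC they were 0.42, 0.20 and 0.80, over cells of which 9 held no Syt5 read. For Syt4 the closest were Tmem214 (0.83), the stress-response factor Atf4 (0.78) and Jakmip2 (0.77), and for Atf4 the value was 0.72 within LOC and 0.90 within MOC. Syt3 was closest to Atp11b (0.80), Syt7 to Ppp1r9b, the gene of the spine protein spinophilin (0.72), Syt2 to Trappc2 (0.72) and Syt1 to Rgs4, a regulator of G protein signalling (0.69). The highest of 10968 values is high by selection, and library totals differ between cells, so these are descriptions.

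The remaining synaptotagmins and the partners of release are read against the all-gene shares of 6.07% toward LOC and 5.67% toward MOC, and with lists this short the counts below set none of them apart. Of the 7 other synaptotagmins, Syt8, Syt11, Syt13, Syt14, Syt15, Syt16 and Syt17, none met the rule in either direction. Syt11, which does not bind calcium and is also made by glia, was the most abundant, with 560 CPM for LOC and 773 CPM for MOC. Syt13 had 59.3 CPM for LOC and 66.1 CPM for MOC, and Syt16 had 56.4 and 25.4 CPM, with 48.9% of the LOC reads in LOC cell 14 and 74.3% of the MOC reads in MOC cell 13. For Syt17 the levels were 29.8 CPM for LOC, or 17.4 CPM without LOC cell 13, and 74.3 CPM for MOC, or 16.2 CPM without MOC cell 3. Syt14 had 12.1 CPM for LOC and 32.3 CPM for MOC, or 19.3 CPM without MOC cell 5. Syt8 and Syt15 were under 2 CPM in both groups. None of the 11 measured synaptotagmin-like and other double C2 genes and none of the 13 active zone scaffold genes met the rule.

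Among the SNARE proteins, which form the fusion complex that synaptotagmins act on, 2 of 13 measured genes met the rule toward LOC and 1 toward MOC. Vamp4, a vesicle SNARE of the secretory pathway, had 81.1 CPM for LOC and 33.6 CPM for MOC. Stx1a, the plasma membrane syntaxin, had 122 and 52.7 CPM, but 69.6% of the LOC reads came from LOC cell 14 and 86.9% of the MOC reads from MOC cell 13, and without LOC cell 14 the difference of 1.27 was 0.87 and the rule was not met. Snap29, a SNAP-25 relative that lacks a membrane anchor, stood at 5.96 CPM for LOC cells, or 3.19 CPM without LOC cell 18, and 48.5 CPM for MOC cells. Of 17 measured genes that handle or prime SNAREs, Stxbp5l, the tomosyn-2 gene that holds back fusion, was higher in LOC with 79.6 CPM against 8.87 CPM for MOC, and the LOC level was 46.2 CPM without LOC cell 5. Cplx1, a complexin that clamps SNARE complexes together with synaptotagmin, was higher in MOC with 273 CPM for LOC and 929 CPM for MOC. Of 15 synaptic vesicle proteins 1 met the rule, Sv2c, a vesicle glycoprotein, with 32.8 CPM for LOC, or 17.9 CPM without LOC cell 8, and 80.7 CPM for MOC. Vamp4, Snap29, Stxbp5l, Cplx1 and Sv2c met it with any single cell left out and among libraries with at least 10 cholinergic reads.

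Against the same all-gene shares, the microglia markers were the list of other cells with most members past the rule. Of 10 microglia markers, 6 met the rule toward MOC and 0 toward LOC, and their summed level was 32.4 to 2052 CPM for LOC and 40.7 to 9448 CPM for MOC libraries. For the 10 oligodendrocyte markers 1 met the rule, toward MOC, as did 1 of 10 astrocyte markers, 1 of 5 inhibitory neuron markers, 0 of 10 vessel markers and 0 of 2 measured glutamate transporters, with 0 of each toward LOC, counts of 0 or 1 that do not stand apart from 5.67% of all genes. Of 6 cholinergic markers 1 met it toward LOC, as did 5 of 6 LOC peptide genes, and 0 of either toward MOC. The peptide genes were listed as genes of LOC neurons, with earlier results of these data known, so their count is no independent finding. The part of the marker lists in the synaptotagmin levels was not tested. Without the 3 libraries highest in microglia markers (MOC cells 8 and 12 and LOC cell 9) the difference was 4.61 for Syt5, 1.93 for Syt4, -1.50 for Syt2 and -0.75 for Syt6, and the last no longer met the rule.

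**Figure D5:**
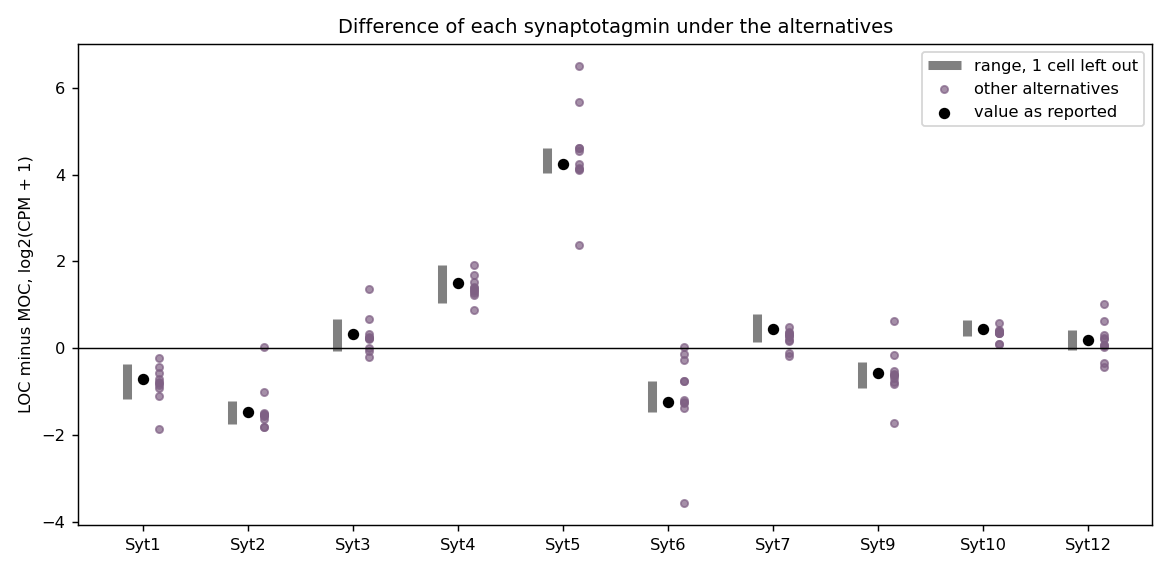
LOC minus MOC difference of mean log2(CPM + 1) for each gene as reported (black), as the range with each of the 31 cells left out in turn (grey) and under 10 other settings (violet). Syt5 stays between 2.39 and 6.51 and Syt4 between 0.88 and 1.93, while Syt2 and Syt6 reach 0.031 and 0.023 under 1 setting each.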

How the data were processed

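Single-cell Smart-seq2 libraries of 18 LOC and 13 MOC neurons were analysed. Deposited by the authors were unnormalized counts for each gene and a normalized signal table, by its name CPM after TMM; each of its values is the raw count times 1 constant per column. The submitters' processing notes name STAR 2.5.2, bcl2fastq, limma, edgeR and DESeq2, with builds mm10 and GRCm38 and no roles. Neither the counting tool nor its annotation was stated in the sources used. Names, positions and exon lengths came from GENCODE M21, which matched 55154 of 55421 identifiers. The 19 added sequences (0.0173% of reads) were left out of library sizes.

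Measured genes had a read in 25% or more of the cells of either group, with a floor of 3 counts over the group in ratios. Cells are not replicates, so the groups were not tested against each other. Named genes were the 10 members, up to 4 genes per list and direction that met the size rule, all other synaptotagmins, and the 3 most correlated genes of Syt5 and of members read in 80% of the cells of both groups. The members, lists and rules were chosen with earlier results of these data known. On simulated counts the size rule also picked genes given no difference, so a gene that meets it is not shown to differ. Alternatives used edgeR 4.0.16, DESeq2 1.42.0 (sizes only) and R 4.3.3; the rest ran in Python 3.11.15 with scipy 1.17.1.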

Additional observations from a re-analysis of the deposited data

How the results depend on the processing

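Syt4 and Syt5 met the size rule toward LOC and Syt2 and Syt6 toward MOC with summed counts, TMM sizes, DESeq2 sizes, the deposited normalized table, thinning to 300000 reads and no detection filter. With medians over cells 1 gene met it toward LOC (Syt5) and 0 toward MOC, and Syt2 reversed to 0.031. With a pseudocount of 10, without the 3 libraries highest in microglia markers, and without MOC cells 8 and 13 together, a choice made after seeing the data, 1 gene met it toward MOC (Syt2). Syt6 reversed to 0.023 among libraries with at least 10 cholinergic reads, where Syt1 and Syt2 met the rule toward MOC. For Syt1 those libraries include MOC cell 3 with 1028 CPM, and the rule was not applied there without it. With each cell left out in turn, the count toward LOC was 2 throughout and that toward MOC ran from 1 to 2, the lower value without MOC cell 8 or MOC cell 13, and the median difference of the members ran from -0.06 to 0.43. The cause of these shifts was not tested. Of the differences of single genes under these alternatives, 407 moved by less than 1 SD between cells, 1 moved further (Syt6, to -3.57 with summed counts) and 2 of genes that met the rule reversed, as given above. An SD between single cells is a wide measure, so the 407 are not shown to be steady. They include Syt1 moving from -0.71 to -1.85 among cholinergic libraries and Syt4 from 1.5 to 0.88 with medians, where each changed its standing under the rule. Smaller differences of Syt3, Syt7, Syt9 and Syt12 changed sign under some of the alternatives. Pooling all counts gave 2950 genes toward LOC and 2521 toward MOC in place of 1078 and 1007, and a pseudocount of 10 gave 370 and 209. The balance of the groups among all genes followed the library size, with 905 toward LOC and 1232 toward MOC under TMM, 844 and 1325 under DESeq2 sizes and 912 and 1203 in the deposited normalized table, where the median of all genes was -0.13, -0.15 and -0.12. No paired analysis was possible because cell numbers only name cells and no test was run. Genes under about 10 CPM, such as Syt10, are limited by depth.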
